A study of Caenorhabditis elegans with 20 samples.

Results

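Among 20 RNA-seq libraries of whole Caenorhabditis elegans harvested at the L4 larval stage, 6 carried transcript profiles that looked developmentally younger than the other 14. In wild type these were libraries a and c given DMSO and libraries a and d given F17, and in the nhr-131 mutant they were library c under either treatment. The letters are those of the columns of the count table. The 6 were picked on measured expression, from their low levels of genes of the transition from L4 to adult and their place on the main axis of variation within groups. The contrast between the 6 and the 14 is therefore given below as a description, with no test. The labels state the L4 stage for all 20 libraries and give no finer age, so "younger" is a name for a pattern of transcripts.

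Cultures were started in liquid from L1 larvae that had been synchronized. The worms were wild type (strain N2, from the column names) or carried a mutation in nhr-131, a nuclear hormone receptor gene. The labels do not state the allele. Worms of either genotype received 2.5 µM F17 or 0.1% DMSO during the final 4 h. The labels give F17 as a code with no chemical name, and DMSO is its solvent. Each of the 4 groups held 5 libraries of poly(A) RNA, described as independent biological replicates. The nhr-131 gene itself had 77 to 196 counts in each of the 10 wild-type libraries and 0 to 4 counts in each of the 10 mutant libraries.

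C. elegans hermaphrodites pass through 4 larval stages, each closed by a molt in which a new cuticle is laid down under the old one. During L4 the epidermis prepares the adult cuticle with stage-specific collagens, the germ line first makes sperm and then switches to oocytes, and the vulva and uterus take shape. After the last molt the intestine makes large amounts of yolk protein, the vitellogenins, for the oocytes. Many transcripts rise and fall with each molt, so cultures that differ by a few hours can differ in many transcripts.

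Total counts ran from 12836432 to 26908383 per library, and 13795 of 28301 genes passed the filter on low counts. Levels are given as CPM, the count of a gene scaled to library size, after TMM scaling. Differences are log2 estimates of younger minus other libraries from 1 model that holds the 4 groups apart. In the smallest younger library, a of wild type with F17, 3 counts equal 0.235 CPM. The RNA came from whole animals, so fewer cells of a type and less RNA per cell cannot be told apart in any result below.

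After each group was centred on its own mean, the first principal component held 53.9% of the variation among libraries, the second 12.3% and the third 6.11%. The 6 younger libraries lay between -106 and -54.6 on the first component. The chosen library nearest to the rest was d of wild type with F17 at -54.6, and the nearest library outside was d of nhr-131 with DMSO at 1.27. The 14 others ran from there to 63.7. No library lay in the gap between -54.6 and 1.27. Along the first component library c was the lowest of its group in wild type with DMSO (-89.9), the mutant with DMSO (-85.4) and the mutant with F17 (-106), while library c of wild type with F17 stood among the others at 39.2.

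**Figure D1:**
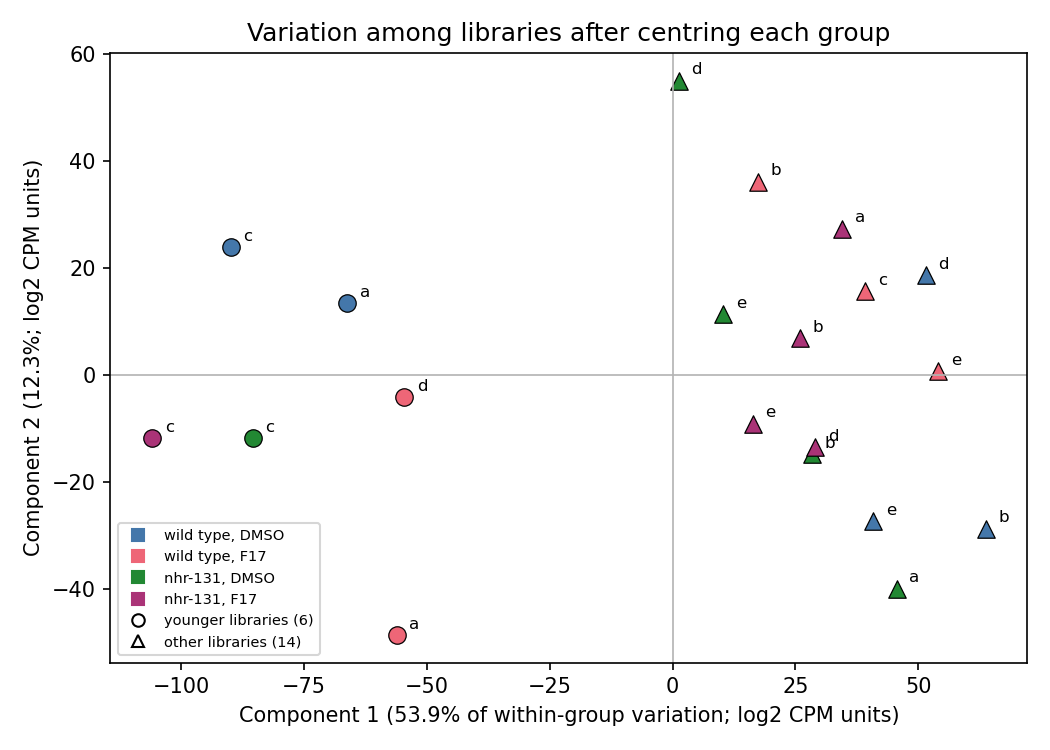
Each point is 1 library, placed by its scores (log2 CPM units) on the first 2 components of the variation left after centring each group. Colour gives the group, circles the 6 younger and triangles the 14 other libraries, and letters the column letter. The circles lie from -106 to -54.6 on the first component and the triangles from 1.27 to 63.7.

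Library composition also moved with the split in some libraries. Ribosomal RNA genes took 2.91%, 3.75% and 2.24% of counts in the younger libraries of letter c, and 14.8%, 22.5% and 5.75% in the younger libraries a of wild type with DMSO, a of wild type with F17 and d of wild type with F17. In the 14 others the share ran from 3.92% to 27.5%. TMM factors were 1.25 to 1.3 in the younger libraries of letter c and 0.888 to 1.19 in the other 3. The part of these quantities in the differences below was not tested. Removing all ribosomal RNA genes moved the median of no list by more than 0.023 on the log2 scale.

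The split ran through a large share of the transcriptome. For the median gene 36.2% of its variation within groups lay between the younger and the other libraries, with quartiles at 10.1% and 64.7%, and in 5238 genes (38%) it was over 50%. Of the 13795 genes, 1309 (9.49%) were at least 2-fold lower in the younger libraries and 1854 (13.4%) at least 2-fold higher. At least 8-fold, 119 genes were lower and 108 higher. In 1979 genes (14.3%) the younger libraries lay below all others of their group in each of the 4 groups, and in 1824 genes (13.2%) they lay above. These percentages are the background for the gene lists below, and the choice of the libraries fixed part of them. The median difference over all genes was 0.02, and upper-quartile scaling moved it by 0.0954.

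The 6 libraries were low in transcripts of the adult cuticle. All 6 tested adult cuticle collagens were at least 2-fold lower, with a median difference of -3.33. rol-1, an adult-stage cuticle collagen, had 1.31 CPM in the lowest, 16.3 in the median and 38.3 in the highest younger library, and 604, 1230 and 1601 CPM in the same places among the 14 others, a difference of -6.42. col-19, the collagen commonly used as a marker of the adult epidermis, had 0.157, 0.389 and 1.22 CPM against 4.06, 13.7 and 66.2 CPM (-4.90). bli-1, a collagen of the struts that join the layers of the adult cuticle, had 9.82, 228 and 400 CPM against 648, 1150 and 1514 CPM (-3.10), and its partner bli-2 differed by -3.46. For each of these 4 genes every younger library lay below every other library of the study.

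Collagens were not lower as a class. Of 120 tested genes named col, 53 were at least 2-fold lower and 36 at least 2-fold higher, with a median of -0.45, so both shares were above the background of 9.49% and 13.4%. At the low end, col-63 had 0.632 to 19.5 CPM in the younger and 479 to 1285 CPM in the other libraries (-6.92), col-60 differed by -6.87, col-181 by -6.35 and col-88 by -7.24. At the high end, col-117 had 59.8 to 548 CPM against 8.47 to 107 CPM (3.70), and col-142 33.4 to 67.4 CPM against 1.41 to 11.45 CPM (3.37).

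The named cuticle collagens split by kind. Among 12 other named cuticle collagens, outside the furrow and adult sets, 10 were at least 2-fold lower and 0 at least 2-fold higher, with a median of -1.69. bli-6 had 3.92 to 131.4 CPM in the younger and 1028 to 1536 CPM in the other libraries (-4.78). sqt-3 and sqt-1, which shape the body through several stages, differed by -1.92 and -1.75, and lon-3, a collagen that limits body length, by -1.81. By contrast none of the 6 furrow collagens, which form the circumferential furrows of the cuticle and are made early in each molt cycle, reached 2-fold: dpy-7 had 55.9 to 216 CPM against 39.2 to 224 CPM (-0.17), and dpy-8 differed most, by -0.71. The furrow median of -0.14 lay near 0 and took the other sign in the wild-type libraries alone (0.15).

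**Figure D2:**
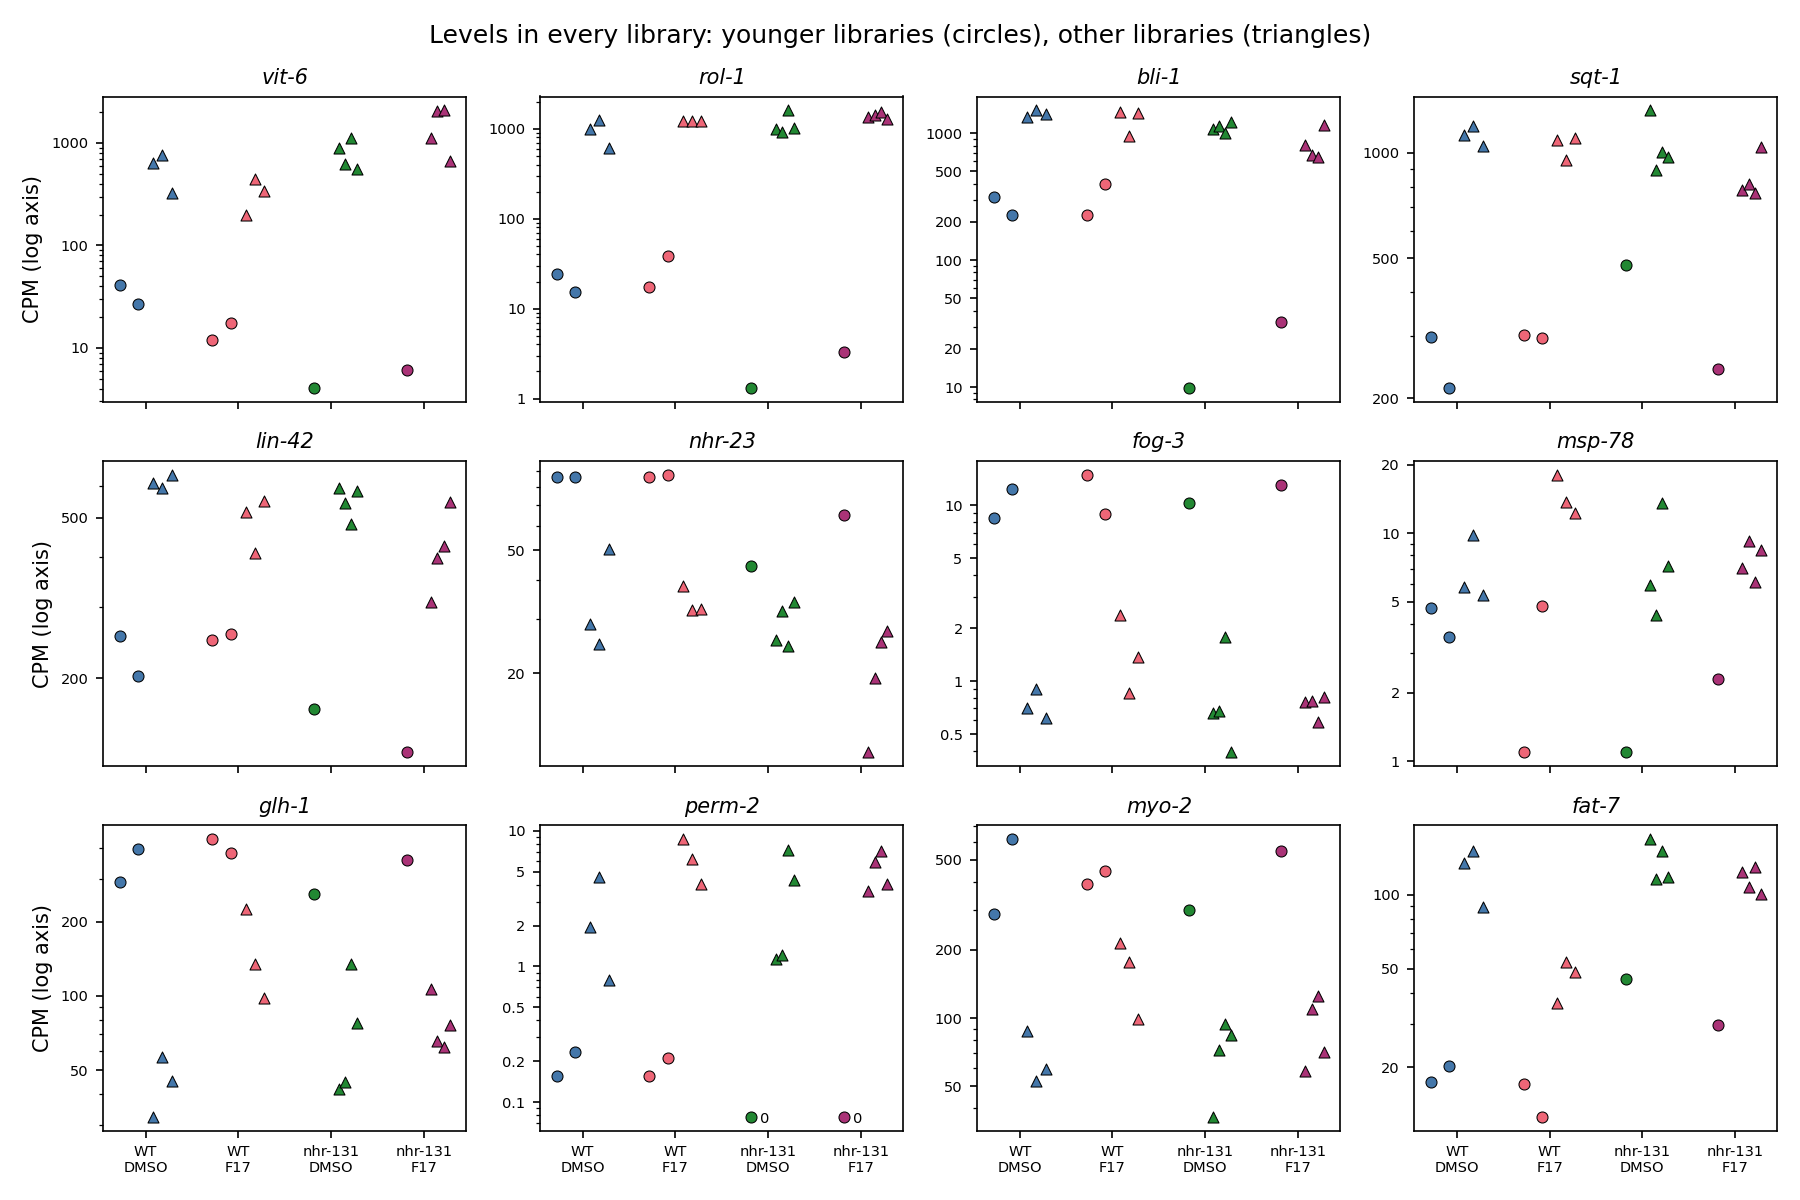
Levels (CPM, log axis) of 12 genes in every library, by group, with the 6 younger libraries as circles and the 14 others as triangles. A point marked 0 had no counts and is drawn at the foot of its panel. Circles lie below triangles for vit-6, rol-1, bli-1, sqt-1, lin-42 and perm-2 and above them for nhr-23, fog-3, glh-1 and myo-2 within each group.

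Of 14 regulators of the molting cycle, 3 were at least 2-fold lower and 2 at least 2-fold higher, at a median of -0.05 that turned to 0.04 under upper-quartile scaling. The share higher was near the background of 13.4%. In 6 of the 14 the younger libraries lay below all others of their group in each group, and in 4 above. lin-42, the period-family gene that paces molting and developmental timing, had 131.1, 225 and 257 CPM in the lowest, median and highest younger library and 309, 545 and 639 CPM in the others (-1.38). bed-3, a transcription factor needed for molting, was also lower, at 10.5 to 50.1 CPM against 37 to 88.3 CPM (-1.59). nhr-23, the nuclear hormone receptor that drives molting genes, was higher, at 44.6, 86.3 and 87.8 CPM against 11.1, 28.1 and 50.5 CPM (1.27), and nhr-85, another nuclear hormone receptor of the oscillating set, differed by 1.28. These 4 genes had the list's most extreme differences. For each of them the younger libraries lay beyond the others of their group in each group, although the ranges over the whole study overlapped for bed-3 and nhr-23.

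Of 27 genes of the apical matrix and of molting, 7 were at least 2-fold lower and 3 higher, the latter a share near the background of 13.4%. Their median of -0.08 turned to 0.02 under upper-quartile scaling. mlt-10 (-1.89) and mlt-9 (-1.90), both needed for molting, qua-1 (-1.95), a hedgehog-related molting gene, and cut-6 (-1.92), a cuticlin, led the lower side. Of 8 heterochronic genes, which order the fates of larval stages, 1 was lower (lin-42) and 1 higher, lin-46 with 4.06 to 10.7 CPM against 0.647 to 4.62 CPM (1.25). Both shares were near the background of 9.49% and 13.4%. lin-14, which specifies early larval fates, had 37.3 to 58 CPM against 30.7 to 44.4 CPM (0.30), and lin-41, which holds back adult fates, differed by 0.61.

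Genes of the worm's hedgehog-related families, secreted proteins expressed mostly in epidermal and other cuticle-forming cells, differed in both directions. Of 36 tested, 21 were at least 2-fold lower and 8 at least 2-fold higher, with a median of -1.23. wrt-6 had 18.3, 29.6 and 42.9 CPM in the lowest, median and highest younger library and 429, 573 and 909 CPM in the others (-4.38), with 97.7% of its variation within groups along the split. wrt-4 (-3.53) and grd-2 (-3.08) were lower as well, and grl-21 was higher at 26.6 to 106 CPM against 1.41 to 15.3 CPM (2.97). Of 25 genes related to patched, membrane proteins needed in cuticle formation, 7 were lower and 3 higher, the latter a share near the background of 13.4%. Among them ptd-2 (-2.19) and ptr-18 (-1.90) were lower, and ptr-13 (2.34) and ptr-8 (1.72) higher.

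Vitellogenins had the largest median difference of the 35 lists, with all 6 genes at least 2-fold lower and below every other library of their group in each group, at a median of -5.38. vit-6 had 4.05, 14.7 and 41.5 CPM in the lowest, median and highest younger library and 196, 651 and 2079 CPM in the others (-5.20). vit-2, named after its values were seen, had 1.01 to 20.4 CPM against 143 to 1335 CPM (-5.08). vit-3, with 7 counts in all 6 younger libraries and 0 in 4 of them, had 5.47 to 107 CPM in the others, and vit-5 had 14 counts in all 6 and 0 in 2 of them. vit-3, vit-4 and vit-5 are near-identical genes, so their separate levels are uncertain. vit-6, which is less like them in sequence, showed the same pattern.

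The germ line stood in the other direction. Of 31 germline genes, 21 were at least 2-fold higher in the younger libraries and 0 at least 2-fold lower, at a median of 1.57. glh-1, a helicase of the germ granules, had 259, 370 and 435 CPM in the lowest, median and highest younger library and 32.3, 70.9 and 225 CPM in the others (2.13), so every younger library exceeded every other library. glh-4, another germ granule helicase, differed by 2.11, htp-3, a protein of meiotic chromosome axes, by 2.06, and fbf-1, which keeps germline stem cells, by 2.09. Transcripts named among the housekeeping and ribosomal lists that the germ line is known to favour followed: iff-1, the germline form of translation factor eIF5A, differed by 1.33, and rpl-11.1 by 1.26, while rpl-11.2 differed by -0.35. Among 71 ribosomal protein genes rpl-11.1 was the only one past 2-fold.

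Several genes of the decision for sperm were higher in the younger libraries. fog-3, needed for germ cells to become sperm, had 8.47, 11.3 and 14.9 CPM in the lowest, median and highest younger library and 0.393, 0.767 and 2.38 CPM in the others (3.55). fog-1, which acts beside it, had 11.8 to 20.5 CPM against 1.32 to 6.71 CPM (2.68). spe-44, a transcription factor of the spermatogenesis program, had 8.81 to 21.4 CPM against 0.783 to 8.66 CPM (2.26). The 3 genes did not overlap between the 6 and the 14 libraries. In the list of 7 genes of meiosis commitment and the switch to sperm, 5 were at least 2-fold higher, with a median of 1.33. The 5 included him-8 (1.02), and fem-3 (0.06) and tra-1 (-0.28) did not reach 2-fold.

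Products of late spermatogenesis did not follow. Of 30 tested genes for major sperm proteins, which drive the crawling of sperm, 22 were at least 2-fold lower and 0 higher, at a median of -1.13. msp-78 had 1.09, 2.90 and 4.82 CPM in the lowest, median and highest younger library and 4.40, 7.78 and 18.1 CPM in the others (-1.75), so the ranges overlapped. Members of this family are near copies of each other and their separate counts are uncertain. The list deviated little in wild type with DMSO (-0.22 and -0.33 in libraries a and c) and most in library c of nhr-131 with DMSO (-2.39). The 35 other sperm genes had 7 members lower and 5 higher, the latter a share near the background of 13.4%. fer-1, needed for sperm membrane fusion, was higher at 20.8 to 48.3 CPM against 2.58 to 17.8 CPM (2.20), while ssp-34 was lower (-1.63).

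Oocyte and eggshell genes split too. Of 22 tested, 3 were at least 2-fold lower and 5 higher, at a median of 0.06. The 3 lower genes serve the eggshell: perm-2 had 0 to 0.236 CPM against 0.789 to 8.72 CPM (-4.998), perm-4 differed by -3.31 and cpg-3 by -2.13. oma-1, which controls oocyte maturation, had 10.4 to 15.1 CPM against 0.753 to 17 CPM (1.19), with overlap. The other higher genes were egg-2 (1.16), egg-3 (1.07), chs-1 (1.06) and oma-2 (1.05). The split therefore did not part eggshell genes from oocyte genes. As a mean over the list, the wild-type DMSO libraries a and c stood 0.47 and 0.89 above the others of their group on the log2 scale, and the other 4 younger libraries stood below theirs.

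Few replication genes reached 2-fold. Of 22 tested, 1 was at least 2-fold lower and 1 at least 2-fold higher, both shares below the background of 9.49% and 13.4%, at a median of 0.39. The higher one was cya-1, a cyclin (1.05), and the lower one rnr-1, the large subunit of ribonucleotide reductase, had 74 to 84.3 CPM in the younger and 125 to 238 CPM in the other libraries (-1.16). mcm-7 and mcm-4, subunits of the replicative helicase, had differences of 0.91 and 0.86. Of 30 histone genes 16 were at least 2-fold lower and 2 higher, at a median of -1.18, with his-3 at 1.73 to 2.82 CPM against 8.01 to 16.09 CPM (-2.35). Replication-dependent histone transcripts lack poly(A) tails and these libraries were made from poly(A) RNA; the histone genes are also near copies of each other.

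**Figure D3:**
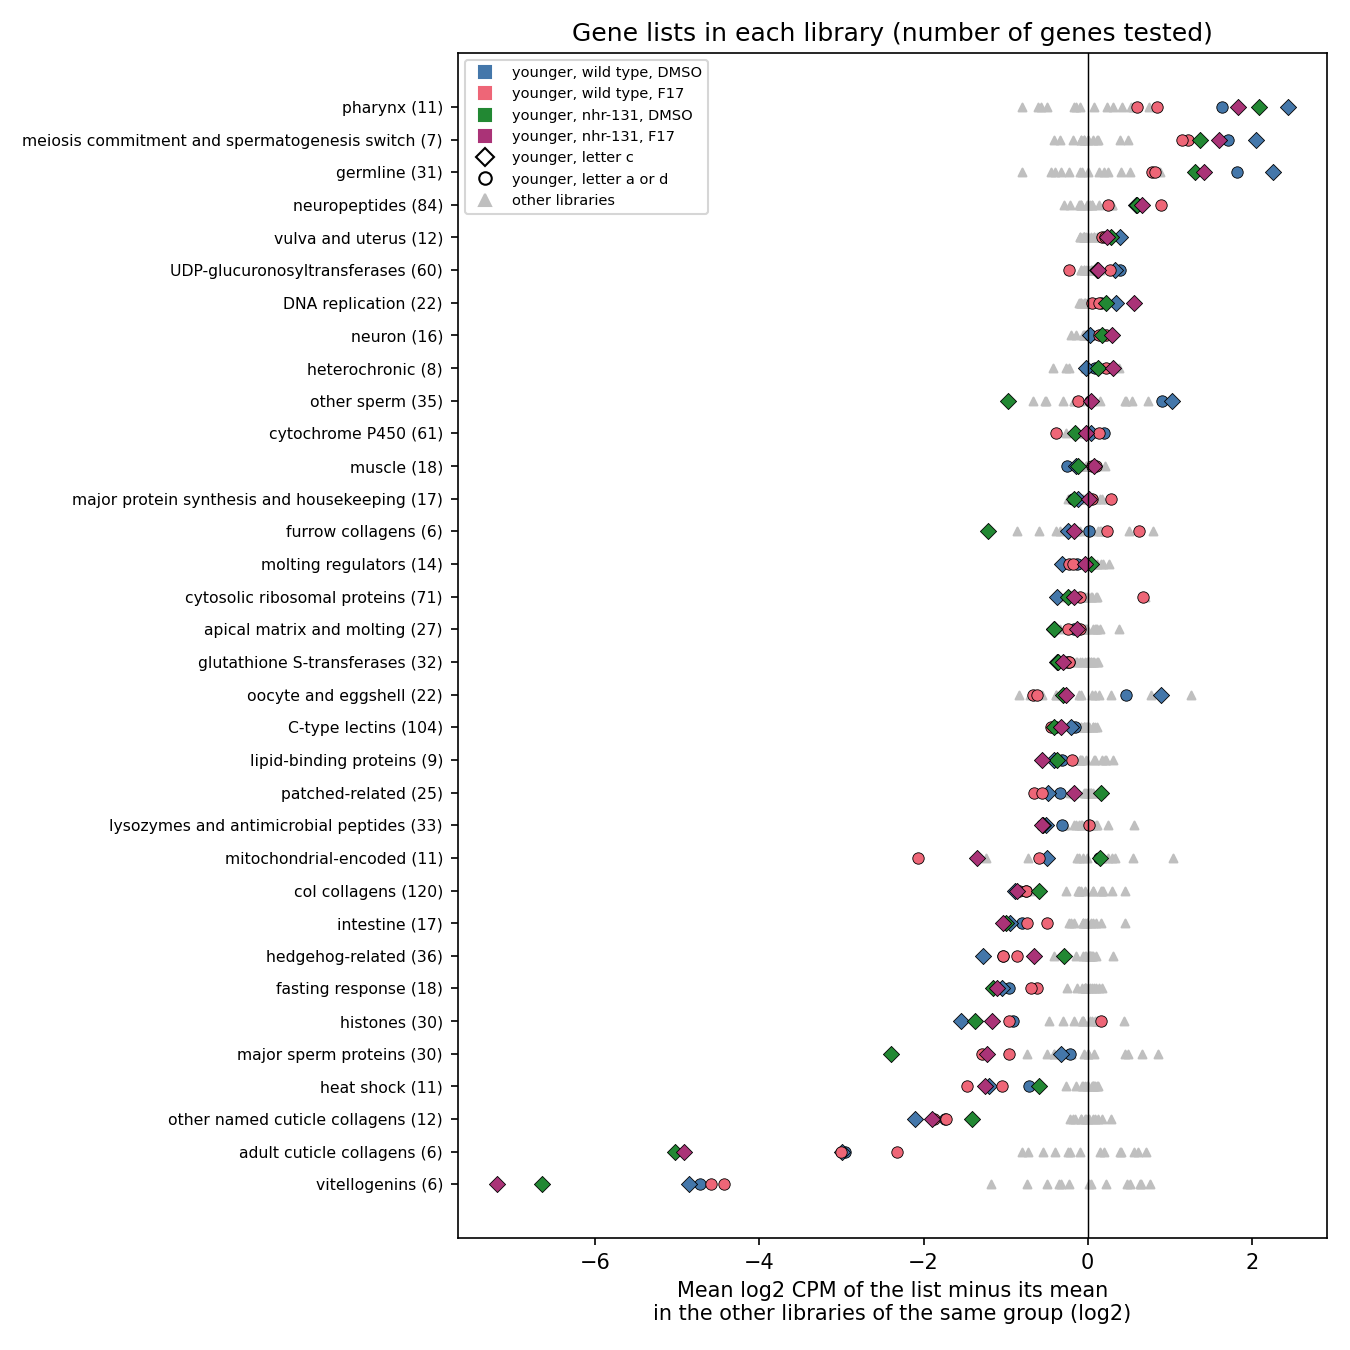
For each gene list other than ribosomal RNA, the mean log2 CPM of each library minus the mean of the other libraries of its group (x axis, log2). Coloured points are the 6 younger libraries (diamonds for letter c, circles for a and d) and grey triangles the 14 others, and the number of genes tested stands beside each list. Vitellogenins reach -7.20 at the low end and the pharynx list 2.44 at the high end.

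Transcripts of the intestine were lower. Of 17 intestinal genes 7 were at least 2-fold lower and 0 higher, at a median of -0.92. cpr-6, a cathepsin-type protease, had 167, 219 and 331 CPM in the lowest, median and highest younger library and 1054, 1936 and 2990 CPM in the others (-2.90). ftn-1, an iron-storing ferritin, had 1.56 to 5.02 CPM against 7.15 to 33.5 CPM (-2.54), ges-1, the gut esterase, differed by -1.32, and elt-7, a transcription factor of the intestine, by -1.26. No muscle or neuron list gene reached 2-fold among 18 and 16 tested.

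Lipid enzymes that fasting is known to alter went the same way, with 8 of 18 at least 2-fold lower and 0 higher, at a median of -0.90. fat-5, a palmitate desaturase, had 15.3 to 42.6 CPM in the younger and 80.9 to 230 CPM in the other libraries (-2.55). fat-7, a stearate desaturase, had 12.61, 18.8 and 45.3 CPM in the lowest, median and highest younger library and 36.4, 116 and 168 CPM in the others (-2.004), fat-6, its close relative, differed by -1.57, and icl-1, the glyoxylate cycle enzyme, by -1.69. Of 11 heat shock genes 5 were lower, 0 were higher and 6 did not reach 2-fold, at a median of -0.29. hsp-70 had 5.31 to 13.3 CPM against 34.4 to 86 CPM (-2.82), and hsp-16.2 differed by -2.77 and hsp-16.41 by -2.56.

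Genes of the pharynx, the feeding organ, were higher. Of 11 tested, 9 were at least 2-fold higher and 0 lower, at a median of 1.90. myo-2, a myosin of pharyngeal muscle, had 287, 418 and 616 CPM in the lowest, median and highest younger library and 36.8, 86.3 and 213 CPM in the others (2.20), tnc-2, a pharyngeal troponin C, differed by 2.16, and phat-4, a pharyngeal gland gene, by 2.25. The list deviated most in library c of wild type with DMSO (2.44) and least in the younger libraries of wild type with F17 (0.60 and 0.84). Among 84 neuropeptide and insulin-like genes 28 were higher and 5 lower, led by ins-5 at 2.32 to 13.4 CPM against 0 to 1.41 CPM (4.30) and nlp-26 (2.93), nlp-27 (2.82) and nlp-16 (2.58). lin-11, a homeobox gene of vulval cells, and lin-3, the epidermal growth factor that induces the vulva, differed by 2.19 and 1.64, and 3 of 12 vulval and uterine genes were higher.

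Families that act on foreign compounds differed in part. Of 61 cytochrome P450 genes 10 were at least 2-fold lower and 9 higher, the latter a share near the background of 13.4%. Of 60 UDP-glucuronosyltransferase genes 10 were lower and 12 higher, and of 32 glutathione S-transferase genes 7 were lower and 3 higher. cyp-25A2 had 3.28 to 12.9 CPM in the younger and 15.7 to 50.5 CPM in the other libraries (-1.92), ugt-63 12.9 to 40.8 CPM against 0.666 to 6.93 CPM (2.90), and gst-13 21.7 to 36.8 CPM against 46.4 to 128 CPM (-1.49). In C-type lectins, which include defence genes, 36 of 104 were lower and 15 higher. In lysozymes and antimicrobial peptides 13 of 33 were lower and 4 higher, with spp-13 at -2.07 and abf-6 at 2.91. For the lectins and for this list the share higher was near the background of 13.4%.

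Where the mean level was 3 or more in log2 CPM and all younger libraries lay beyond the others in each group, the largest differences included several collagens and vitellogenins. On the lower side were vit-3, vit-5, E03H4.4 (3 counts in all 6 younger libraries against 5.14 to 18.2 CPM in the others), col-88, dao-4 (0.156 to 1.82 against 50.4 to 178 CPM, -7.09), col-63, col-60 and rol-1. On the higher side were pqn-31 (27.2 to 65.2 against 0.588 to 6.5 CPM, 4.47), ZC116.1 (3.95), pqn-94 (3.95), C53B7.3 (3.81), col-117 (3.70), ZC21.3 (3.41), col-142 (3.37) and nas-9 (3.32), an astacin-type protease gene. The pqn genes code for proteins rich in glutamine and asparagine.

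Low levels of adult cuticle and yolk transcripts restate how the 6 libraries were chosen, and every other gene was measured in the same libraries, so no gene list here is an independent check of the name younger. All 20 libraries carry the label L4, with no finer age to compare.

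The 6 libraries were not alike. For vitellogenins the list mean minus that of the other libraries of the group was -4.86 to -4.43 in the 4 younger wild-type libraries, and -6.66 and -7.20 in the 2 mutant ones. For adult cuticle collagens it was -3.01 to -2.32 in wild type and -5.03 and -4.92 in the mutant. bli-1 shows it by library: 312 and 228 CPM in the wild-type DMSO libraries a and c, 228 and 400 in the wild-type F17 libraries a and d, 9.82 in c of nhr-131 with DMSO and 32.6 in c of nhr-131 with F17. vit-2 was picked with its values in view, for a large difference of this kind between the genotypes. For vit-2 the younger libraries differed from the others by -4.27 and -3.68 in wild type with DMSO and with F17, and by -8.40 and -8.51 in the mutant. The 2 mutant libraries were thus the lowest on both lists, while on the first component library c of wild type with DMSO (-89.9) stood between them. On the higher side dpy-1, known by a mutant of body shape and named after its values were seen, had 22.2 to 30.1 CPM in the 4 younger wild-type libraries, 123 in c of nhr-131 with DMSO and 62.3 in c of nhr-131 with F17, and 8.24 to 20 CPM in the 14 others. The mutant side rests on 2 libraries, both of letter c, so genotype and those cultures cannot be told apart, and no test was made of these differences because they are distances that the choice of libraries used.

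The choice of libraries did not use the treatment label, but it was made within treatment groups on the same expression values. Whether F17 acted alike in both kinds of library was tested with that limit. The test was edgeR's quasi-likelihood F-test, with Benjamini-Hochberg adjustment over 13795 genes, in 1 model with a term for the difference. The same term is the change with F17 in the distance between younger and other libraries. The choice set how far along the split the libraries of each treatment lie. The p-values of this term take that choice as given and make no allowance for it. The 6 younger libraries were 3 with F17 and 3 with DMSO, and the 14 others 7 and 7. Each F17 effect is an average over both genotypes. The model takes the difference between younger and other libraries as equal in wild type and mutant. The effect in the younger libraries therefore also draws on the others. In the younger libraries 102 genes (0.739%) rose and 9 (0.0652%) fell. In the others 233 (1.69%) rose and 213 (1.54%) fell. Of the 102 genes that rose in the younger libraries 95 also rose in the others, which is 93.1% of the first list and 40.8% of the second. The genes that fell in both were 3, named after their values were seen: dlhd-1 (-2.36 and -2.01 in younger and other), C32H11.4 (-1.52 and -1.74) and sdz-24 (-0.81 and -0.61). The count for the 14 others rested on single libraries: 446 calls became 264 without library c, 273 without library b, both of wild type with F17, 295 without e of wild type with DMSO and 1544 without d of nhr-131 with DMSO. The count for the younger libraries, 111, became 56 without their 3 libraries of letter c.

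Genes of foreign-compound metabolism rose in both. Of 61 cytochrome P450 genes 17 rose and 0 fell in the younger libraries, and 25 rose and 4 fell in the others. Of 60 UDP-glucuronosyltransferase genes 14 rose and 0 fell against 22 and 3, and of 32 glutathione S-transferase genes 5 rose and 0 fell against 5 and 3. Over all genes 0.739% rose and 0.0652% fell in the younger libraries, and 1.69% and 1.54% in the others. The median F17 effect over the P450 list was 0.43 in the younger and 0.58 in the other libraries, beside -0.02 and -0.01 over all genes. The order was reversed for the UDP-glucuronosyltransferase list (0.27 and 0.13) and the glutathione S-transferase list (0.15 and -0.005). A difference in these counts is no test of a difference in response.

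**Figure D4:**
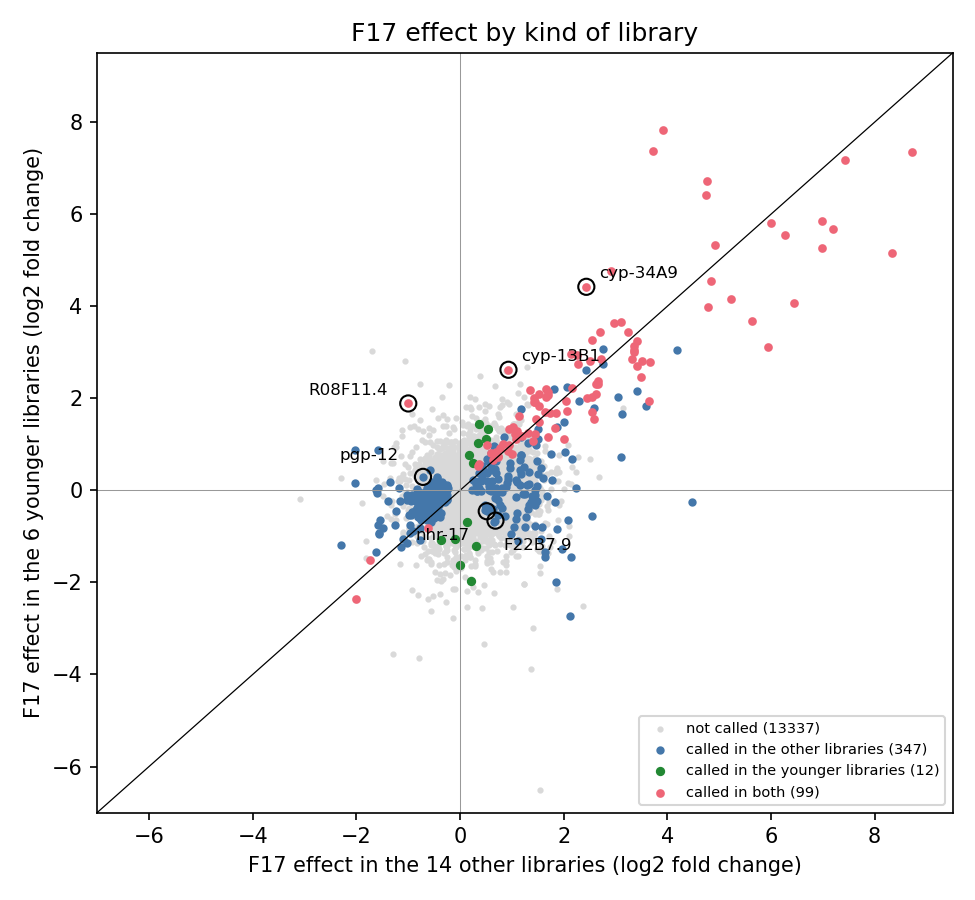
Each point is 1 of 13795 genes, with the F17 effect (log2 fold change) in the 14 other libraries on the x axis and in the 6 younger libraries on the y axis. Red points (99) passed the test in both kinds of library, blue (347) in the others, green (12) in the younger, and circles mark the 6 genes whose effects differed; the line marks equal effects.

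The difference itself was called for 6 genes. The F17 effect was higher in the younger libraries for 4 (0.029%) and lower for 2 (0.0145%), and 1009 genes had an unadjusted p under 0.05. DESeq2's Wald test called 42, limma-voom 6. R08F11.4, a gene with no role given in the files, had 2.93 and 2.32 CPM in the younger DMSO libraries a and c of wild type, 4.54 and 6.43 in a and d with F17, and 0.632 (DMSO) and 6.79 (F17) in the mutant. In the other libraries it had 55.7 to 63.1 CPM with DMSO and 22.5 to 27.5 with F17 in wild type, and 49.4 to 72.1 and 32.5 to 37.9 in the mutant. R08F11.4 itself differed by -3.38 between younger and other libraries, with 83.9% of its variation within groups along the split. In wild type F17 libraries were above DMSO libraries among the younger and below them among the others, without overlap. The mutant had 1 younger library per treatment, both of letter c, so overlap could not arise in that pair. F17 was above DMSO in that pair, and below DMSO without overlap among the other mutant libraries. The effects were 1.89 and -0.999, and their difference 2.89 (SE 0.28, adjusted p = 6.53e-05). It was called in all 30 alternatives, with adjusted p up to 0.00686.

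cyp-34A9 and cyp-13B1, both cytochrome P450 genes, had higher means with F17 in both kinds of library, and larger ratios of means in the younger. In wild type cyp-13B1 went from 30.9 and 19.6 CPM to 249 and 227 CPM in the younger libraries, a 9.41-fold ratio of means, and from 27.7 to 36.1 CPM to 94.7 to 105 CPM in the others, a 3.05-fold ratio. In the mutant it went from 7.84 to 32.3 CPM in the younger libraries, with 1 library per treatment. In the other mutant libraries it went from 18.8 to 34.1 CPM to 26.7 to 34.9 CPM, a 1.20-fold ratio with overlapping ranges. The difference was 1.68 (SE 0.23, adjusted p = 0.00477). cyp-34A9 went from 5.28 and 4.32 to 63.7 and 87.7 CPM in younger wild type and from 6.71 to 9.31 CPM to 34.5 to 47.6 CPM in the others, a difference of 1.98 (SE 0.28, adjusted p = 0.00696). In the mutant cyp-34A9 went from 2.15 to 77.8 CPM in the younger libraries, a 36.2-fold ratio from 1 library per treatment, both of letter c. The ratio of means in the other mutant libraries was 5.76-fold. Its younger F17 libraries lay above, and its younger DMSO libraries below, the other libraries of their group.

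The remaining 3 genes had F17 effects of opposite sign in the 2 kinds of library, although none of them passed the test in the younger libraries alone. pgp-12, an ABC transporter gene, had 20.5 and 16.9 CPM with DMSO and 24.1 and 20.5 with F17 in younger wild type, against 23.9 to 29.3 and 14.1 to 14.7 CPM in the others, a difference of 1.01 (SE 0.16, adjusted p = 0.0135). nhr-17, a nuclear hormone receptor gene, had 11 and 9.28 CPM against 8.45 and 7.83 in the younger and 17 to 19.1 against 27 to 29.9 CPM in the others, a difference of -0.97 (SE 0.15, adjusted p = 0.00863). F22B7.9 differed by -1.34 (SE 0.20, adjusted p = 0.00737). Without the 3 younger libraries of letter c the 5 genes besides R08F11.4 did not pass the test, with adjusted p of 0.67 for cyp-34A9, 0.344 for cyp-13B1, 0.32 for pgp-12, 0.19 for nhr-17 and 0.0739 for F22B7.9. Their differences kept their sign in all 30 alternatives. On the first component the younger DMSO libraries lay at -66.1, -89.9 and -85.4 and the younger F17 libraries at -56.1, -54.6 and -106. The part of these unequal positions in these 6 results was not tested.

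**Figure D5:**
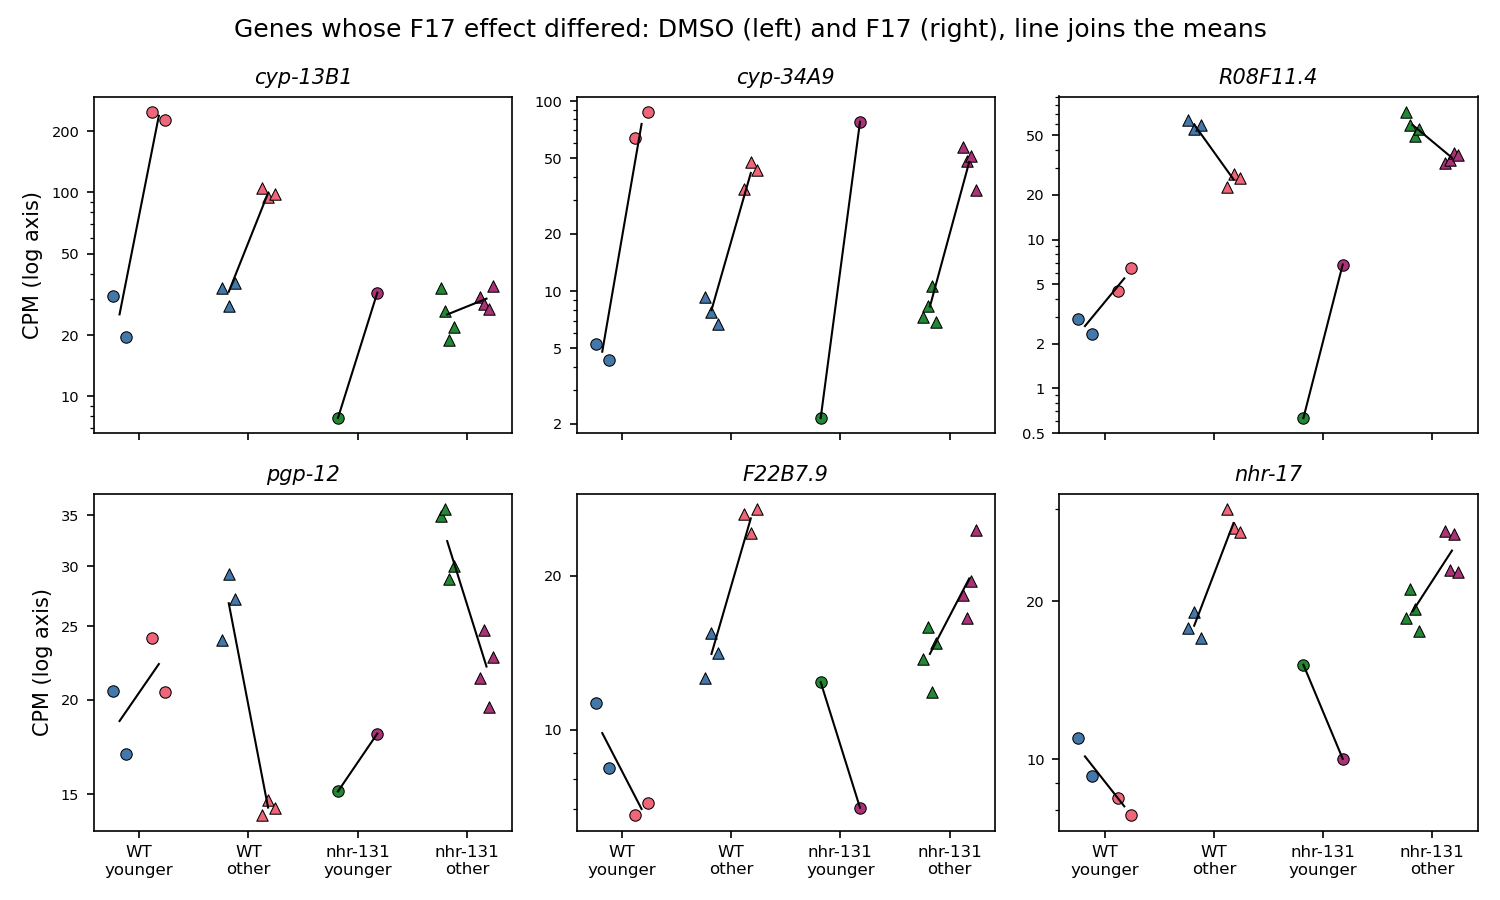
Levels (CPM, log axis) of the 6 genes whose F17 effect differed, in every library. Within each genotype and kind of library the left points are DMSO and the right points F17, circles are younger and triangles other libraries, and lines join the means. For R08F11.4 the lines run up in the younger and down in the other libraries of both genotypes.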

How the data were processed

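Whole-animal poly(A) RNA of 20 cultures was sequenced with a directional kit, per the labels' protocols. The deposited table holds whole-number counts per gene, with no normalization, aligned with TopHat2 and counted with HTSeq, per the submitters' processing notes; the build, annotation and strand setting were not given in the sources used here. Column letters are not matched to the labels' replicate numbers. In 10 rows the gene name reads as a date.

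The count model was edgeR 4.0.16 in R 4.3.3 (filterByExpr, minimum count 10; TMM; quasi-likelihood F-test; Benjamini-Hochberg; adjusted p under 0.05). The description used 4 group means and the kind of library (15 residual degrees of freedom). The tests of F17 used a model that added its differences by F17 and by genotype (13 residual degrees of freedom, spread shared by all libraries). SE is the absolute log2 value divided by the square root of F. A planned test of whether the distance between younger and other libraries differed by genotype was not used, since that distance chose the libraries. The test of the difference by F17 has the same form and was kept, so its p-values carry the same limit. Component scores used log2 CPM with a prior count of 2. The procedure was also run on simulated data with the younger libraries fixed in advance, so that run does not bear on how they were chosen. Intervals were not computed; the 3-count floor covers counting error only.

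The libraries, the 35 gene lists and the named genes' rule were chosen with earlier results of these data known. The rule named up to 4 members of each list with mean log2 CPM of at least 1 and the largest difference, the 8 genes with the largest difference in each direction over all genes with mean log2 CPM of at least 3, and up to 8 called genes in each direction of the tested difference of F17 effects; other genes are marked where named, as picked with values in view. Alternatives were scaling, filters, DESeq2 1.42.0, limma 3.58.1 (limma-voom), leaving out libraries, and a block by letter. No 2 libraries of a group were copies: chi-square per degree of freedom was at least 22.7.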

Additional observations from a re-analysis of the deposited data

Results flagged for a closer look

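In groups of 5 libraries a gap to the nearest library over the group's range of more than 0.71 was looked for in 160 sets of values, and 22 (13.8%) passed; chance gives about 1 in 20. Of these 22, 18 fell on a younger library, and the younger libraries were chosen on such values. In nhr-131 with F17 library c stood apart at the low end in the first component (0.87), vitellogenins (0.757), other named cuticle collagens (0.77), adult cuticle collagens (0.763), intestine (0.882), fasting response (0.922) and heat shock genes (0.907). It stood apart at the high end in the TMM factor (0.742), germline (0.742) and spermatogenesis switch genes (0.839). In nhr-131 with DMSO library c was low in vitellogenins (0.865), other named cuticle collagens (0.779), adult cuticle collagens (0.808) and fasting response genes (0.791). In wild type with F17 library a was high in the ribosomal RNA share (0.774) and ribosomal protein genes (0.832), and library d was low in histones (0.798) and in lysozymes and antimicrobial peptides (0.726). The 4 on other libraries were d of wild type with DMSO, high in major sperm proteins (0.822), d of nhr-131 with DMSO, low in heterochronic genes (0.849), a of nhr-131 with DMSO, high in ribosomal protein genes (0.814), and b of nhr-131 with F17, high in cytochrome P450 genes (0.792).

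The difference of F17 effects between younger and other libraries passed edgeR's quasi-likelihood test for R08F11.4 (2.89), cyp-34A9 (1.98), cyp-13B1 (1.68), pgp-12 (1.01), F22B7.9 (-1.34) and nhr-17 (-0.97), all on the log2 scale. The libraries were chosen on the same expression values, and the test makes no allowance for that choice. Without the younger libraries of letter c only R08F11.4 among these genes still passed.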

How the results depend on the processing

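The 6 genes whose F17 effect differed kept their sign in all 30 alternatives. Of 35 list medians of younger minus other, 10 took the other sign under an alternative. Ribosomal RNA went from -0.99 to 0.54 without the younger libraries of letter c. The other 9 had medians of at most 0.18 in size: furrow collagens (-0.14, range -0.60 to 0.33), other sperm genes (0.18, -0.22 to 0.42), oocyte and eggshell (0.06, -0.16 to 0.22), apical matrix and molting (-0.08, -0.43 to 0.22), molting regulators (-0.05, -0.22 to 0.05), cytochrome P450 (0.11, -0.15 to 0.25), UDP-glucuronosyltransferase (-0.01, -0.15 to 0.10), ribosomal protein (-0.09, -0.24 to 0.09) and neuron genes (0.01, -0.02 to 0.10). Without a filter the calls were 404 for the difference of F17 effects, 228 and 1608 for F17 in the younger and other libraries, and 3526 and 4524 genes were at least 2-fold lower and higher. With at least 50 counts in 5 libraries 1133 genes were at least 2-fold higher and the first component held 64.2%. DESeq2's Wald test called 42 and 830 for the difference of F17 effects and F17 in the others. Without all libraries of letter c 49 genes, and without the younger ones 56, were called for F17 in the younger libraries. With all letter c left out, 1 of the 6 genes whose F17 effect differed was kept. Leaving out 1 library at a time gave 5 to 10 calls for the difference of F17 effects, 80 to 122 for F17 in the younger and 264 to 1544 for F17 in the other libraries. The difference of F17 effects had 10 calls without d of wild type with DMSO, without c of nhr-131 with DMSO or without c of nhr-131 with F17. The cause was not tested. With a replicate block by letter the calls were 9 (5 of the 6 kept), 111 and 363 for the difference and for F17 in the younger and other libraries, and 1442 and 1863 genes were past 2-fold; pgp-12 had an adjusted p of 0.0954. Deviations of same-lettered libraries correlated by -0.681 to 0.818, at a mean of 0.0803. For letter e all 6 pairs were positive (0.162 to 0.56), and letter b had a mean of 0.229. Not every pair was above 0.1 and the labels do not say what a letter marks, so letters were not taken as a pairing. Depth limits low-count genes: 3 counts equal 0.11 to 0.282 CPM over the 20 libraries.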

Other observations

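By chromosome the difference between the younger and the other libraries was near 0 at the median for the autosomes, from 0.03 to 0.06, and -0.19 for the X chromosome, where 13.4% of 1915 genes were at least 2-fold lower. On chromosomes I and III 5.18% and 5.46% of genes were at least 2-fold lower, and on II, IV and V 10.3%, 10.7% and 12%. The share over all tested genes was 9.49%. Chromosomes and gene types come from the RefSeq table of assembly WBcel235, which matched 13517 of the tested genes by name. Of 360 tested pseudogenes 126 (35%) were at least 2-fold higher, against 1686 of 13019 protein-coding genes (13%); pseudogenes can share reads with the genes they resemble.

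Genes called for F17 in the younger libraries and not in the others, named after their values were seen, included emb-8, the reductase that passes electrons to cytochrome P450 enzymes (0.78 against 0.17 on the log2 scale), and bcmo-2 (1.03 against 0.35). The tests of the differences gave adjusted p of 0.106 and 0.443 by edgeR's quasi-likelihood test, so neither difference passed.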
